A study of Mus musculus with 203 samples.

Results

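Receptor tyrosine phosphatases are single-pass membrane proteins that carry adhesion-type domains outside the cell and phosphatase domains inside it. The 10 described here are Ptprd, with Ptprf, Ptprs, Ptprt, Ptprk, Ptprm, Ptprg, Ptprz1, Ptprn and Ptpro. They were picked by symbol from a table of 24029 genes counted in single neurons of the mouse nucleus ambiguus (Amb), after Ptprd had been seen to differ between neuron types in these same data. What follows is therefore a description of their levels, and no test was made on them.

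The neurons came from wild-type C57BL/6 mice, of the substrain C57BL/6NCrl by the study's methods. Cholera toxin B, a fluorescent retrograde tracer, had been injected on postnatal day 1 into the pericardial space to label AmbCardiac neurons, or in separate mice into the cricothyroid muscle of the larynx to label AmbLaryngeal neurons. Labeled cell bodies were aspirated from brainstem slices on postnatal days 2 to 4, and each was sequenced by Smart-seq2, a plate method that reads along the whole amplified cDNA. The cluster assigned by the authors makes 53 neurons ACP and 98 neurons ACV, the ambiguus cardiopulmonary and ambiguus cardiovascular types of AmbCardiac neurons, and 52 neurons Larynx. Pericardial tracer can leak to the esophagus, and the authors avoided the compact formation of Amb, where such leak would label neurons. Each deposited sample is 1 neuron whose mouse and plate are not named, so each type counts as 1 sample. Means ± SD below are over neurons. Poisson intervals on summed reads cover counting error only, since amplified reads without molecular identifiers are not independent molecules. Exact binomial intervals on shares of neurons take the neurons as independent draws, and the mice behind them are unnamed.

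As background, phosphatases of this class remove phosphate from tyrosine and so oppose tyrosine kinases, and many bind partners on other cells. Ptprd, Ptprf and Ptprs form the LAR type, presynaptic adhesion proteins that bind Slitrk, Il1rap-family and Lrfn proteins across the cleft and proteoglycans of the matrix, and that hold liprins and other active-zone proteins inside the terminal. Ptprt, Ptprk and Ptprm carry a MAM domain and bind their own kind on adjoining cells. Ptprg and Ptprz1 carry a carbonic anhydrase-like domain that binds contactins. Ptprn sits in the membrane of dense-core vesicles, and Ptpro, with fibronectin repeats only, is known from podocytes and from axon growth.

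These members share the loop that forms the catalytic pocket, whose codons are shown to let the family relation be seen in the transcripts themselves. The windows hold 33 bases (11 codons) of the first match to the loop in the coding sequence of each gene shown, read from GENCODE vM21 on GRCm38, the assembly also called mm10, and each is spliced from exons that flank an intron. They are written 5′ to 3′ on the sense strand, and capitals mark bases that differ from Ptprd. The window of Ptprd lies within chr4:75957360-75981964 on the minus strand, an interval that includes the intron. The other windows lie likewise within chr4:118212228-118212337 (Ptprf, minus strand), chr17:56417490-56417601 (Ptprs, minus), chr2:161555528-161558830 (Ptprt, minus) and chr10:28580537-28585581 (Ptprk, plus). Further windows are within chr14:12213796-12215209 (Ptprg, plus), chr6:23033496-23035066 (Ptprz1, plus), chr1:75248145-75248736 (Ptprn, minus) and chr6:137450015-137454606 (Ptpro, plus).
Ptprd: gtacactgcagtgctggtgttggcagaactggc
Ptprf: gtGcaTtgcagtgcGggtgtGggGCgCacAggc
Ptprs: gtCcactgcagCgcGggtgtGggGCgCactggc
Ptprt: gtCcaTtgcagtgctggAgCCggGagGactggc
Ptprk: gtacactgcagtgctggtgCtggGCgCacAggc
Ptprg: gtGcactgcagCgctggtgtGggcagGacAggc
Ptprz1: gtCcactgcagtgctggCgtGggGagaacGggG
Ptprn: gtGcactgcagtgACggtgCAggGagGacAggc
Ptpro: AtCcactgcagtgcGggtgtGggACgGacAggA

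The other genes shown differed from Ptprd at 5 bases (Ptprk, Ptprg) to 9 bases (Ptpro). In Ptprf, Ptprs, Ptprg and Ptprz1 the changed bases left the coded residues as in Ptprd. Ptprt and Ptprk each code for another residue at codon 7 of the window, Ptpro at codon 1, and Ptprn at codons 5 and 7. Every window shown keeps the cysteine codon of the active site at codon 3, and Ptprn is known from textbooks as a member without measurable activity on phosphotyrosine. The relation did not extend to sequenced reads: no stretch of 75 bases, the length of a read, was shared between the transcripts of any member and another receptor tyrosine phosphatase.

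Counts per neuron ran from 542162 to 3292763. Rn45s, the ribosomal RNA precursor, took a median of 34.3% of counts in ACP, 35.8% in ACV and 58.6% in Larynx neurons, so levels are given per 10000 counts outside Rn45s. The median neuron had 1115375, 1120512 and 560892 such counts in ACP, ACV and Larynx. All 8 cholinergic motor neuron markers were detected in 50% or more of the neurons of each type, and their sum was never below 49.1, 32.9 and 38.2 counts per 10000 in ACP, ACV and Larynx. The type markers that follow are genes the paper found to differ between groups of these same neurons. Their separation was thus fixed in advance and only describes the types. The 5 ACP markers summed to a median of 6.24 in ACP against 0.0524 in ACV and 0.910 in Larynx. Those of ACV summed to 6.17 in ACV against 0.0988 in ACP, where Ghsr and Htr3b had no count, and 0.0682 in Larynx. The 6 Larynx markers summed to 25.4 in Larynx against 0.376 and 0.465 in ACP and ACV. Detection was less separate: 1 ACP marker was detected in 50% or more of Larynx neurons. So were 2 Larynx markers in ACP neurons and 1 in ACV neurons. Glial RNA was present in all types: the 8 astrocyte markers had a median sum of 12.9, 10.9 and 12.4, with a highest neuron of 305 in ACV. The paper states that neurons above a set count of Apoe, a glial gene, were removed. Among the deposited neurons Apoe counts reached 6357 in ACP and 45046 in ACV, both above that limit, and 1784 in Larynx, below it. Median Apoe counts were 961, 1077 and 555. These are raw counts, and the types differ in depth. Per 10000 counts outside Rn45s, mean Apoe was 12.4 in ACP, 20.9 in ACV and 13.8 in Larynx. The part of glial RNA in ratios of the cardiac types over Larynx was not tested. Oligodendrocyte precursor markers had median sums of 0.985, 0.625 and 1.49, oligodendrocyte markers of 3.38, 2.76 and 2.29, and microglial markers of 0.957, 1.02 and 1.19, while endothelial markers had medians of 0. Means of 7 of the 8 microglial markers were at least 2-fold higher in ACV than in ACP, and 6 were so in Larynx over ACP. Of the 8 oligodendrocyte precursor markers, 3 were at least 2-fold higher in ACP than in ACV and none higher in ACV, while 3 were higher in Larynx than in ACV and 2 in ACV.

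Ptprd was higher in ACP and Larynx neurons than in ACV neurons, and Ptprt and Ptprg went the same way by a smaller ratio. The 7 other members lay within 2-fold between ACP and ACV. Between ACP and Larynx every member lay within 2-fold.

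A member was called where mean levels of a pair of types stood at least 2-fold apart. Between ACP and ACV, 3 of the 10 members were called higher in ACP, and none was called higher in ACV. Over the 13356 genes counted in no fewer than 10% of either type's neurons, 9.87% were called higher in ACP and 8.63% higher in ACV. The median log2 ratio was 0.36 over the members and 0.00 over all genes. Between ACP and Larynx, 0 of 10 members were called in either direction, beside 10.3% of 13256 genes called higher in ACP and 12.5% higher in Larynx. The median log2 ratio there was -0.08 over the members and -0.03 over all genes. Between ACV and Larynx, Ptprd, Ptprt, Ptprm and Ptprg were called higher in Larynx and none higher in ACV, beside 10.4% of 13297 genes called higher in ACV and 14% called higher in Larynx. The members' median log2 ratio was -0.46, against -0.02 over all genes. The 3 comparisons share neurons and are not independent of one another, and the neurons were sorted into types from these same counts. Because Rn45s took more of the Larynx counts, scaling by all counts moved the median of all genes to a log2 ratio of 0.58 for ACP over Larynx and 0.52 for ACV over Larynx. Of the genes called, the share higher in the cardiac type then rose from 45.3% to 83% for ACP over Larynx and from 42.7% to 77.5% for ACV over Larynx.

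**Figure D1:**
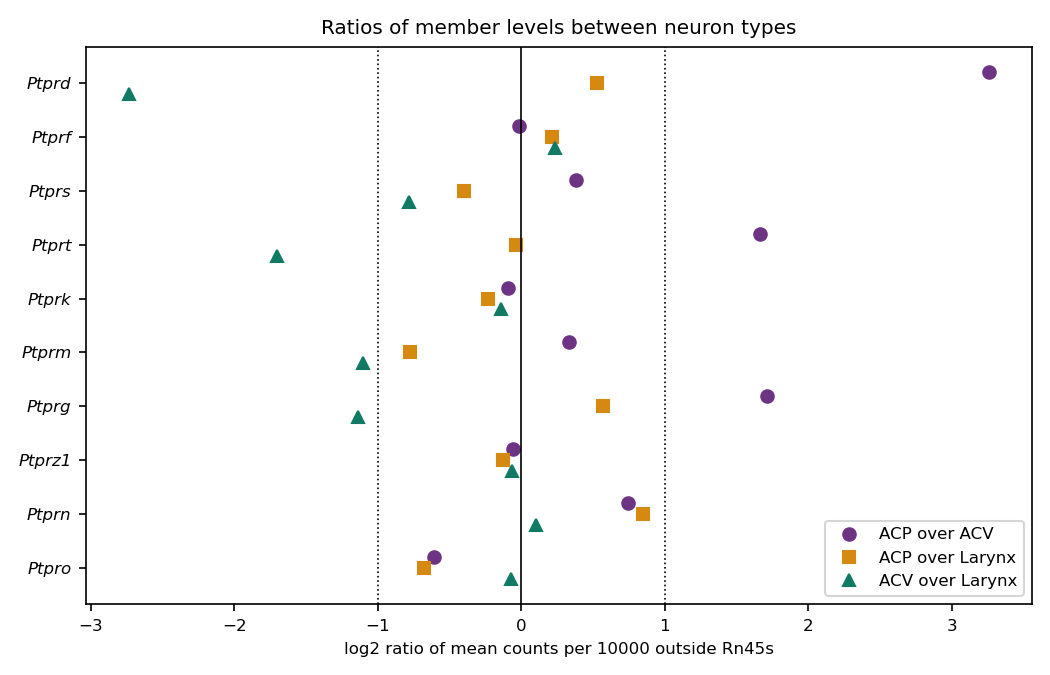
Log2 ratios of mean counts per 10000 outside Rn45s for the 10 members in the 3 comparisons (circles ACP over ACV, squares ACP over Larynx, triangles ACV over Larynx), with dotted lines at 2-fold. Ptprd stands farthest from 0, at 3.26 for ACP over ACV and -2.73 for ACV over Larynx, and every square lies between the dotted lines.

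Ptprd (ENSMUSG00000028399.18, chr4:75941238-78211961, minus strand) codes for the LAR-type protein known to induce synapses in trans and to be spliced into many forms, which counts per gene do not separate. In ACP neurons its level ran from 0.0611 through a median of 3.30 to 22.8 counts per 10000. In ACV neurons it ran from 0 through 0.205 to 3.85, and in Larynx neurons from 0 through 2.42 to 13.3. Ptprd was thus counted in every ACP neuron, at low level in ACV, and at an intermediate level in Larynx. The ranges overlapped: 24 of 53 ACP neurons and 15 of 52 Larynx neurons stood above the highest ACV neuron, and 51 ACP and 50 Larynx neurons stood above the ACV median. A single ACV neuron of 98 exceeded the ACP median, and 3 exceeded the Larynx median.

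Mean Ptprd was 4.77 ± 4.73 (SD, n = 53) in ACP, 3.31 ± 2.72 (SD, n = 52) in Larynx and 0.498 ± 0.740 (SD, n = 98) in ACV. In that order, the means of ACP and Larynx were closer than 1 SD of either type. Larynx and ACV stood farther apart than the SD of either. The ACP mean was 9.57-fold the ACV mean, a log2 ratio of 3.26, and 1.83% of the genes stood as far from 0 in either direction. Of all pairs of an ACP and an ACV neuron, the ACP neuron had the higher level in 93.9%. The Larynx mean was 6.64-fold the ACV mean, with the Larynx neuron higher in 91.3% of pairs. The ACP mean was 1.44-fold the Larynx mean, and the ACP neuron was higher in 60.1% of pairs.

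These levels rest on 26166 reads of Ptprd summed over ACP neurons (exact Poisson 95% interval 25850 to 26485), 4538 over ACV neurons (4407 to 4672) and 10720 over Larynx neurons (10518 to 10925). Ptprd was detected in 53 of 53 ACP neurons (100%, exact Clopper-Pearson 95% interval 93.3% to 100%), 78 of 98 ACV neurons (79.6%, 70.3% to 87.1%) and 51 of 52 Larynx neurons (98.1%, 89.7% to 100%). With each neuron thinned to 200000 counts outside Rn45s, which left out 3 Larynx neurons, the shares were 100%, 66.3% and 98%. The median ACV neuron held 22 reads of Ptprd, against 412 in ACP, and where detected in ACV its median level was 0.352. Within ACV, Ptprd had a Spearman correlation of 0.313 with summed astrocyte markers and 0.270 with summed oligodendrocyte precursor markers (98 neurons). With the sum of the cholinergic motor neuron list, most of it pan-neuronal, it was -0.470. These sums share a library and its depth with Ptprd. In ACP the same correlations were 0.124, 0.0302 and -0.275, and in Larynx -0.161, -0.0394 and -0.0236. With the percent of counts on Rn45s, Ptprd had a correlation of 0.353 in ACP, 0.417 in ACV and -0.0899 in Larynx. With counts outside Rn45s it had -0.453, -0.349 and 0.142. In ACP and ACV both were larger in size than the correlation with astrocyte markers. The parts of glial RNA, Rn45s and depth in the level of Ptprd were not tested. Among neurons with at most 900 counts of Apoe, an astrocyte gene, the log2 ratio of ACP over ACV was 4.09, larger than over all neurons. That cut kept 26 ACP and 44 ACV neurons. Being on raw counts, it can also select by depth, and what moved the ratio was not tested.

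**Figure D2:**
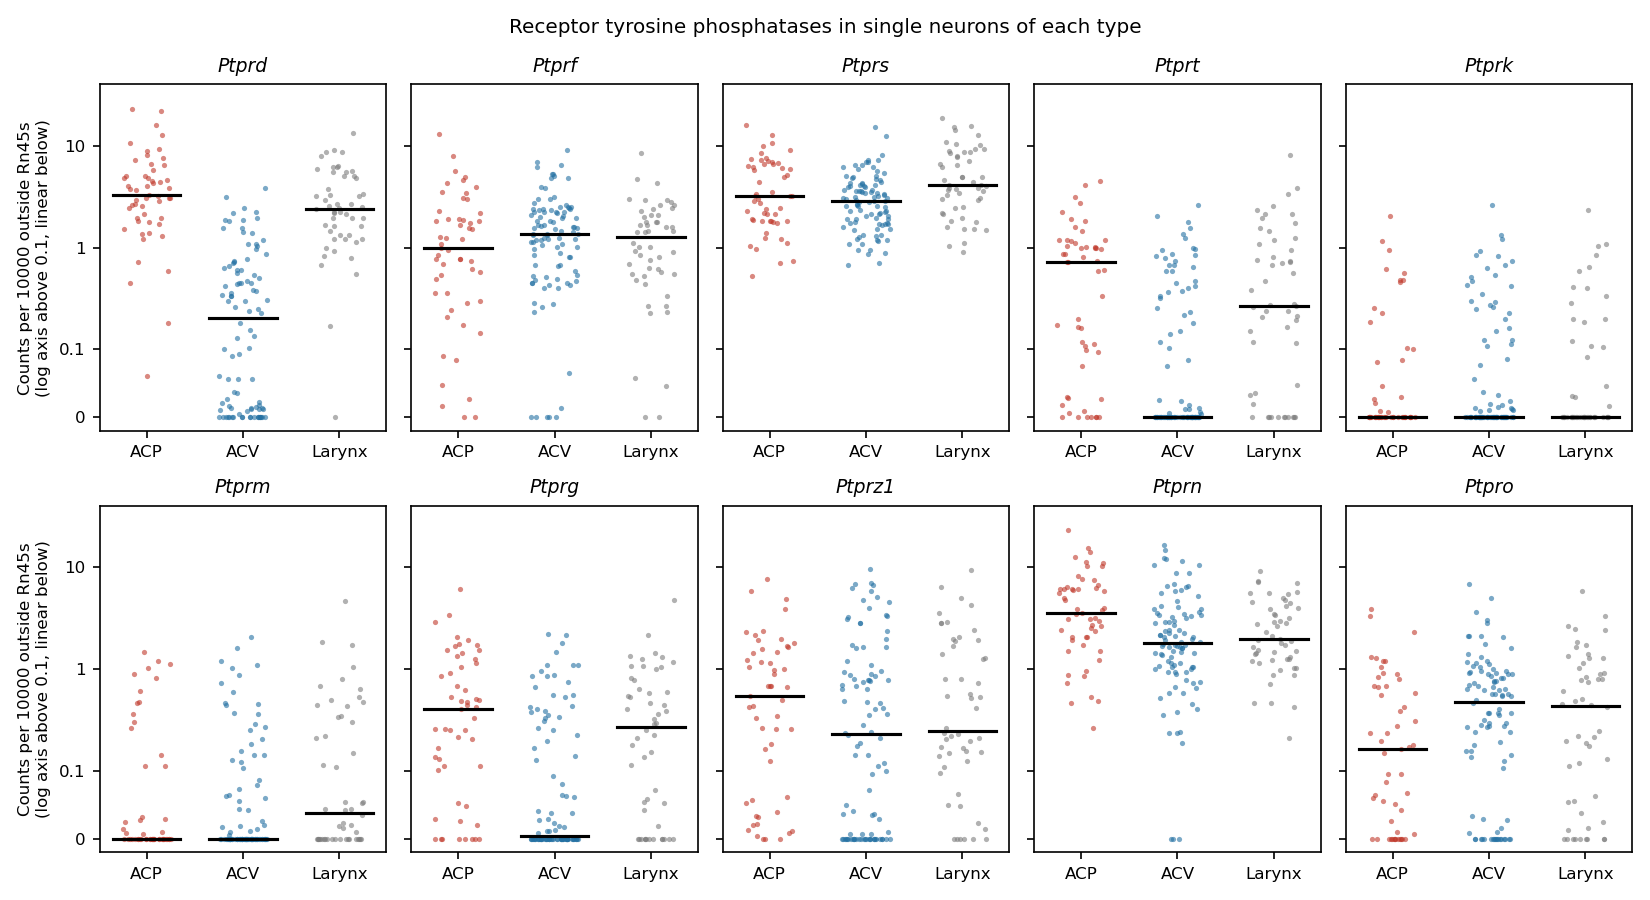
Counts per 10000 outside Rn45s of each member in every ACP, ACV and Larynx neuron (points) with the median of each type (bars), on an axis that is logarithmic above 0.1 and linear below. Ptprd medians are 3.30, 0.205 and 2.42, and 24 ACP and 15 Larynx neurons lie above the highest ACV neuron at 3.85.

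The other LAR-type genes lay within 2-fold in every comparison, though Ptprs, like Ptprd, had its lowest mean in ACV. Ptprf (ENSMUSG00000033295.14, chr4:118208213-118291405, minus strand), the LAR gene itself, ran from 0 through medians of 0.985, 1.36 and 1.27 to 13, 9.17 and 8.42 counts per 10000 in ACP, ACV and Larynx. The types lay over one another, and the means of 1.77 ± 2.29, 1.79 ± 1.66 and 1.52 ± 1.45 differed by less than any of the SDs. It was detected in 96.2%, 94.9% and 96.2% of neurons. Ptprs (ENSMUSG00000013236.17, chr17:56412426-56476483, minus strand), the receptor of heparan and chondroitin sulfate proteoglycans, was counted in every neuron of all types. Its level ran from 0.521 through 3.19 to 16.1 in ACP, from 0.673 through 2.89 to 15.2 in ACV, and from 0.897 through 4.09 to 18.6 in Larynx. Means were 4.34 ± 3.35, 3.34 ± 2.30 and 5.73 ± 4.23, so that Larynx was 1.72-fold ACV and 1.32-fold ACP, both differences being below the SD of Larynx. The difference between Larynx and ACV was above the SD of ACV, and the Larynx neuron was higher in 67.8% of their pairs.

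The balance of the LAR type was read within each neuron as each gene's share of the counts of the 3 genes per kb of exon. There the scaling total cancels, but depth and Rn45s can still bear on the shares. In ACV, 20 of 98 neurons held no read of Ptprd. The correlation with the percent of counts on Rn45s was 0.417 for Ptprd there, against 0.184 for Ptprs and 0.140 for Ptprf. Ptprd made up a median of 30.8% of the LAR-type signal in ACP neurons (from 0.271% to 81.7%), 1.54% in ACV (0% to 25%) and 19.5% in Larynx (0% to 54.5%). Ptprs made up medians of 42.5%, 51% and 55.3%, and Ptprf of 25.9%, 43.2% and 22.8%. Ptprd had the largest share in 12 of 53 ACP neurons (22.6%, exact 95% interval 12.3% to 36.2%) and in 6 of 52 Larynx neurons (11.5%, 4.35% to 23.4%). It led in 0 of 98 ACV neurons, for which the exact 95% upper bound is 3.69%. Ptprs led in 30, 54 and 39 neurons of ACP, ACV and Larynx, and Ptprf in 11, 44 and 7. Shares per kb used the union of all annotated exons, 22822 bases for Ptprd against 9148 for Ptprf and 14990 for Ptprs, so their size depends on which exons these neurons use. Another length for Ptprd alone would change the shares but not the order of the neurons by Ptprd share.

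**Figure D3:**
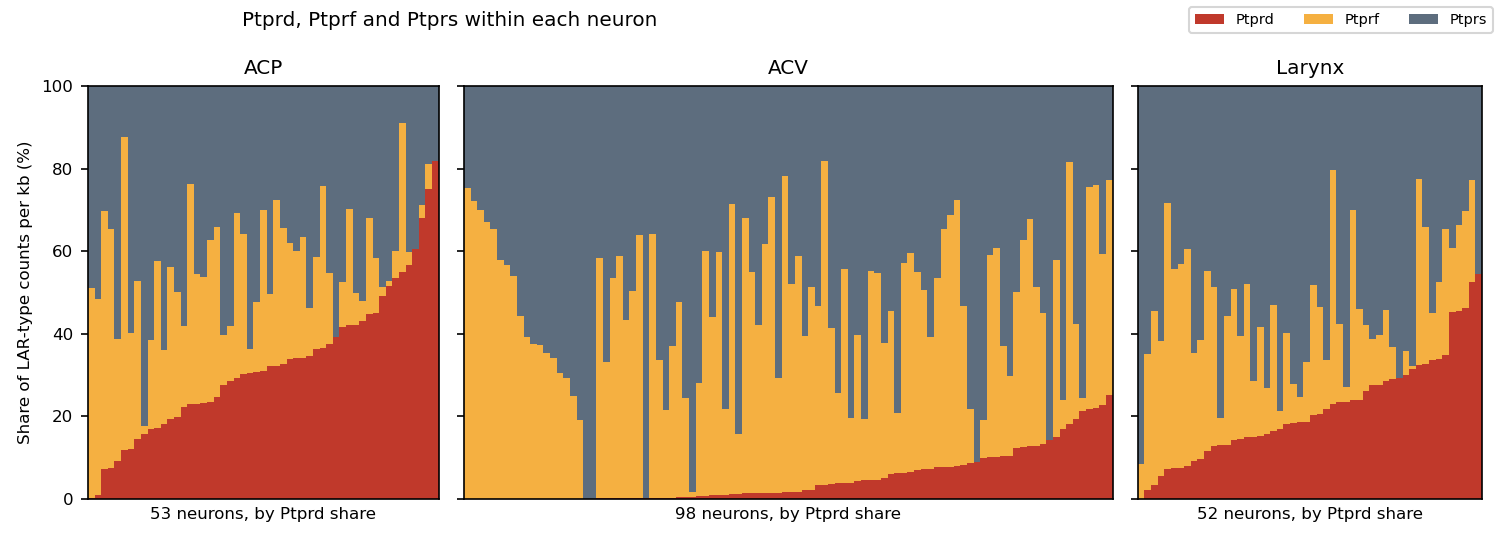
Shares (%) of Ptprd, Ptprf and Ptprs in the LAR-type counts per kb of each neuron, 1 bar per neuron ordered by the Ptprd share. The Ptprd share has medians of 30.8%, 1.54% and 19.5% in ACP, ACV and Larynx and stays at or below 25% in every ACV neuron.

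Across neurons of a type, the level of Ptprd went more with that of Ptprs than with that of Ptprf. The Spearman correlation of Ptprd with Ptprs was 0.474 in ACP, 0.204 in ACV and 0.535 in Larynx, and with Ptprf 0.147, 0.152 and 0.0845. With Ptprn it was 0.518, 0.194 and 0.382. These are descriptions over 53, 98 and 52 neurons whose values share a scaling by depth.

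Of the MAM-type genes, Ptprt was the one with the pattern of Ptprd. Ptprt (ENSMUSG00000053141.16, chr2:161521990-162661147, minus strand), a neuronal member that binds itself on adjoining cells, ran from 0 through 0.715 to 4.48 counts per 10000 in ACP, from 0 through 0 to 2.65 in ACV and from 0 through 0.268 to 8.09 in Larynx. Means were 0.832 ± 1.01, 0.262 ± 0.491 and 0.855 ± 1.38. ACP was 3.17-fold and Larynx 3.26-fold ACV, while ACP and Larynx had nearly the same mean. Ranges overlapped widely, with 4 ACP and 3 Larynx neurons above the highest ACV neuron. It was detected in 86.8% of ACP (74.7% to 94.5%), 46.9% of ACV (36.8% to 57.3%) and 78.8% of Larynx neurons (65.3% to 88.9%), and after thinning in 79.2%, 38.8% and 79.6%.

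Ptprk and Ptprm, both known to bind themselves and expressed in many tissues, were sparse in all types. Ptprk (ENSMUSG00000019889.10, chr10:28074820-28597397, plus strand) had a median of 0 in each type and means of 0.149 ± 0.360, 0.159 ± 0.370 and 0.176 ± 0.404 in ACP, ACV and Larynx. It was detected in 39.6%, 43.9% and 40.4% of neurons. Ptprm (ENSMUSG00000033278.10, chr17:66666947-67354457, minus strand) had medians of 0, 0 and 0.0388, and means of 0.180 ± 0.363, 0.143 ± 0.346 and 0.308 ± 0.735. Larynx was 2.15-fold ACV for Ptprm, less than 1 SD of Larynx. Without the highest Larynx neuron, at 4.67, the ratio was 1.56-fold, and among neurons with at most 900 counts of Apoe it was 5.41-fold. It was detected in 61.5% of Larynx neurons against 43.4% of ACP and 41.8% of ACV. A processed pseudogene of the annotation, AC139750.1, lies over 5.18% of the exon bases of Ptprm and shares 4.23% of its stretches of 75 bases, so reads there may have been counted to either. With summed astrocyte markers, Ptprm had a Spearman correlation of 0.379 in ACP, 0.459 in ACV and 0.0166 in Larynx, and the part of glial RNA in its level was not tested.

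Within neurons that held any MAM-type count, Ptprt had the largest share per kb in 35 of 49 ACP neurons (71.4%, 56.7% to 83.4%), 31 of 77 ACV neurons (40.3%, 29.2% to 52.1%) and 27 of 44 Larynx neurons (61.4%, 45.5% to 75.6%). Ptprm led in 7, 27 and 15, and Ptprk in 7, 19 and 2. Ptpru, the remaining MAM-type gene and no member, had means of 0.317 ± 0.673, 0.237 ± 0.572 and 0.255 ± 0.673 and a median of 0 in each type.

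The carbonic anhydrase-type genes differed from each other. Ptprg (ENSMUSG00000021745.14, chr14:11553532-12242041, plus strand), a receptor of contactins, ran from 0 through 0.410 to 6.14 counts per 10000 in ACP, from 0 through 0.00402 to 2.22 in ACV and from 0 through 0.270 to 4.82 in Larynx. Means were 0.764 ± 1.08, 0.234 ± 0.453 and 0.515 ± 0.786. ACP was 3.27-fold ACV and Larynx 2.20-fold ACV, with 3 ACP neurons and 1 Larynx neuron above the highest ACV neuron. Scaled by all counts, the log2 ratio of ACV over Larynx was -0.77, and without the highest Larynx neuron -0.88, both within 2-fold. With at most 50% of counts on Rn45s it was -1.89, in a subset chosen after seeing the data that kept 76 ACV and 15 Larynx neurons. Ptprg was detected in 84.9% of ACP (72.4% to 93.3%), 50% of ACV (39.7% to 60.3%) and 75.0% of Larynx neurons (61.1% to 86%), and after thinning in 83%, 41.8% and 73.5%.

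Ptprz1 (ENSMUSG00000068748.7, chr6:22875502-23052916, plus strand), also known as a chondroitin sulfate proteoglycan of astrocytes and oligodendrocyte precursors, had nearly equal means in the types. They were 1.08 ± 1.53 in ACP, 1.12 ± 1.93 in ACV and 1.18 ± 1.83 in Larynx. Levels ran from 0 through medians of 0.549, 0.230 and 0.248 to 7.75, 9.60 and 9.37, and detection was 94.3%, 71.4% and 88.5%. Ptprz1 moved with glial markers. Its Spearman correlation with the summed astrocyte markers was 0.475 in ACP, 0.666 in ACV and 0.582 in Larynx, and with the oligodendrocyte precursor markers 0.321, 0.459 and 0.465. With the sum of the cholinergic motor neuron list, most of it pan-neuronal, it was -0.297, -0.341 and -0.478. The part of glial RNA in the level of Ptprz1 was not tested. Its ratios also depended on the neurons taken. With at most 900 counts of Apoe, which kept 26 ACP, 44 ACV and 38 Larynx neurons, ACP over ACV had a log2 ratio of 1.14 and ACV over Larynx of -1.97. With at most 50% of counts on Rn45s, which kept 45, 76 and 15 neurons, ACP over Larynx was 2.32 and ACV over Larynx 1.81.

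**Figure D4:**
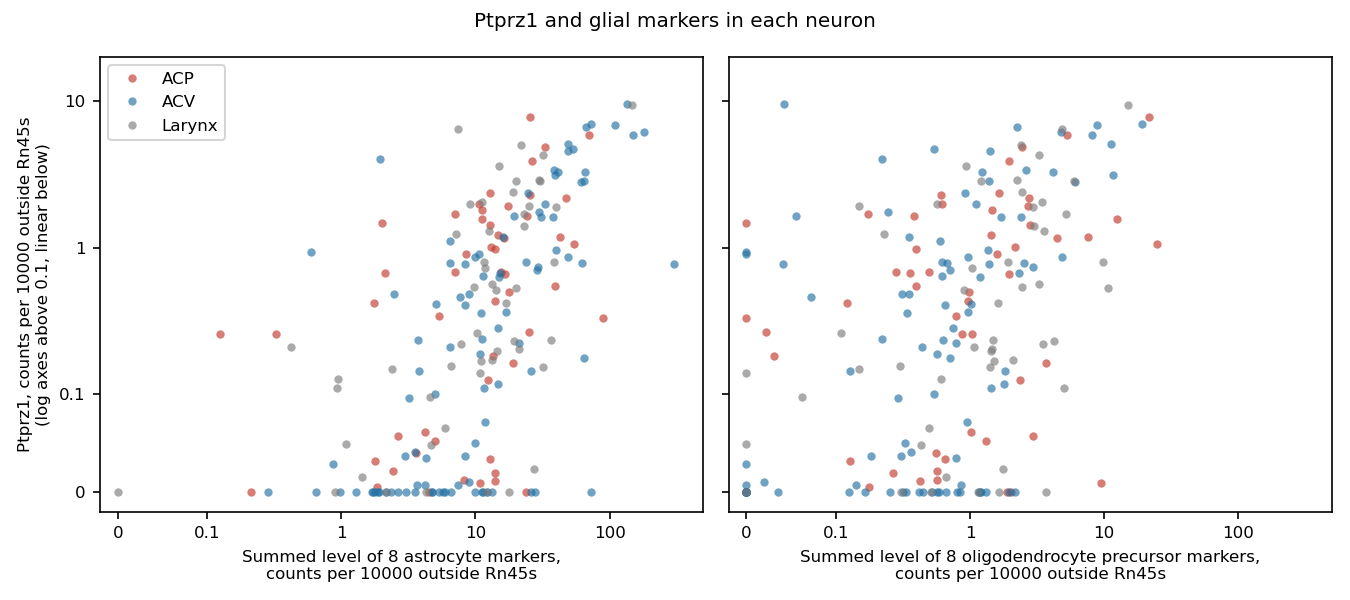
Ptprz1 in each neuron against the summed level of 8 astrocyte markers (left) and 8 oligodendrocyte precursor markers (right), both in counts per 10000 outside Rn45s on axes logarithmic above 0.1 and linear below. Neurons with high Ptprz1 tend toward high astrocyte sums, with Spearman correlations of 0.475, 0.666 and 0.582 in ACP, ACV and Larynx. Exceptions include a Larynx neuron with Ptprz1 at 6.44 and an astrocyte sum of 7.47. An ACV neuron with Ptprz1 at 4.00 has a sum of 1.95.

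Ptprn (ENSMUSG00000026204.15, chr1:75247027-75264502, minus strand), the vesicle-membrane member, was counted in every ACP and Larynx neuron and in 95 of 98 ACV neurons. Levels ran from 0.265 through 3.59 to 23.4 counts per 10000 in ACP, from 0 through 1.80 to 16.7 in ACV and from 0.209 through 1.95 to 9.25 in Larynx. Means were 5.02 ± 4.5, 3.0 ± 3.31 and 2.80 ± 2.11, so that ACP was 1.67-fold ACV and 1.80-fold Larynx, each difference below the SD of ACP. In both comparisons the ACP neuron was higher in about the same share of pairs, 67.1% and 66%. An antisense gene, Gm28294, lies over 4.45% of its exon bases, and without strand their reads cannot be told apart. Ptprn2, its vesicle paralog and no member, had means of 1.39 ± 1.36, 0.848 ± 0.718 and 1.53 ± 1.56. Per kb, Ptprn led Ptprn2 in 52 of 53 ACP, 89 of 97 ACV and 48 of 52 Larynx neurons.

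Ptpro (ENSMUSG00000030223.14, chr6:137252319-137463233, plus strand) had a lower mean in ACP than in the other types, though within 2-fold. It ran from 0 through medians of 0.165, 0.480 and 0.432 to 3.86, 6.92 and 5.90 in ACP, ACV and Larynx. Means were 0.482 ± 0.786, 0.734 ± 1.04 and 0.772 ± 1.08, with ACV 1.52-fold and Larynx 1.60-fold ACP, less than 1 SD of any type. It was detected in 75.5%, 81.6% and 82.7% of neurons.

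Compared per kb of exon and per 1000000 counts outside Rn45s, Ptprn had the highest median level of the members in each type, at 84.5 in ACP, 42.2 in ACV and 46 in Larynx. Ptprs came next, at 21.3, 19.3 and 27.3. Ptprd stood at rank 3 in ACP, at 14.5, at rank 4 in Larynx, at 10.6, and at rank 6 in ACV, at 0.899, below Ptprf, Ptpro and Ptprz1 too. Ptprk had a median of 0 in each type, as Ptprm had in ACP and ACV and Ptprt in ACV. Neurons held reads of a median of 8 members in ACP, 7 in ACV and 8 in Larynx, with a range from 3 to 10, and all members were counted together in 9 ACP, 8 ACV and 15 Larynx neurons. Ptprd and Ptprt were counted in the same neuron in 46 of 53 ACP, 40 of 98 ACV and 41 of 52 Larynx neurons. With Ptprd counted in 53 of 53 ACP and 51 of 52 Larynx neurons, the joint counts there follow from the detection of Ptprt. No ACP or Larynx neuron held Ptprt or Ptprg without Ptprd, which the detection of Ptprd had all but fixed in advance. In ACV, 20 neurons held no Ptprd, and of these 6 held Ptprt and 7 held Ptprg.

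The genes whose levels went most like Ptprd over all neurons together, among 7721 genes detected in most of them, were Thsd7a (Spearman correlation 0.669), Rasgrf1 (0.647), Brinp3 (0.598), Tmem163 (0.597) and Megf11 (0.593). Each had its lowest mean in ACV, which a choice by correlation over pooled types with a gene low in ACV favors. Thsd7a had 3.35 counts per 10000 in ACP, 0.263 in ACV and 1.36 in Larynx, and Rasgrf1 had 2.37, 0.382 and 2.28. Of the members, Ptprt ranked 51 (0.444), followed by Ptprg (0.367) and Ptprs (0.364), and Ptprf ranked 3270 (0.0161). Within a type the list was another. In ACP it was led by Atp13a2 (0.734), Dync1h1 (0.701), Dst (0.695), Mycbp2 (0.688) and Clcn3 (0.673). In ACV it was Marcks (0.558), Lars2 (0.467), Rps28 (0.462), Rpl13a (0.457) and Rps19 (0.447), and in Larynx Hsp90b1 (0.726), Atp2b2 (0.704), Atp2b1 (0.674), Mest (0.669) and Atp2b4 (0.663). All these values share the library and its depth.

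Genes of the partners of these phosphatases were taken as lists. Of the 16 synaptic partners of the LAR type, 8 had means at least 2-fold higher in ACP than in ACV and 1 at least 2-fold higher in ACV, beside 9.87% and 8.63% of all genes, with a median log2 ratio of 1.05 against 0.00 over all genes. Between ACV and Larynx, 8 were higher in Larynx and 1 in ACV, beside 14% and 10.4% of all genes, with a median of -1.02 against -0.02. Between ACP and Larynx, 2 were higher in each, beside 10.3% of all genes higher in ACP and 12.5% in Larynx, with a median of -0.05. Of the 8 higher in ACP than in ACV, Slitrk2, Slitrk6 and Il1rapl2 were sparse. They were detected in 41.5%, 20.8% and 18.9% of ACP neurons and in 29.6%, 13.3% and 13.3% of ACV neurons. Lrfn1, also of the 8, was 1.89-fold without the highest ACP neuron. Against Larynx, the genes described next went in both directions. Between ACP and ACV all of those had higher means in ACP, and the gene past 2-fold toward ACV was Il1rapl1, at a log2 ratio of -1.23.

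Slitrk5, which binds LAR-type phosphatases across the synapse, ran from 0 through 0.790 to 10.7 counts per 10000 in ACP, from 0 through 0.0361 to 2.04 in ACV and from 0 through 0.251 to 2.64 in Larynx. Its ACP mean, 1.10 ± 1.59, was 5.88-fold that of ACV, 0.187 ± 0.322, and 2.59-fold that of Larynx, 0.424 ± 0.602. Slitrk1 had means of 0.299 ± 0.286, 0.106 ± 0.365 and 0.472 ± 0.570 in ACP, ACV and Larynx, 2.83-fold and 4.46-fold ACV in ACP and Larynx. Lrfn1 had means of 0.203 ± 0.360, 0.0944 ± 0.254 and 0.416 ± 1.11, with Larynx 4.40-fold ACV and 2.05-fold ACP. Without the highest Larynx neuron, at 7.43, it was 1.37-fold ACP. Il1rap, a subunit of interleukin-1 receptors with a neuronal form that binds Ptprd, was instead lowest in Larynx, with means of 0.274 ± 0.396, 0.137 ± 0.377 and 0.0462 ± 0.162, ACP being 5.92-fold and ACV 2.96-fold Larynx. A single Larynx neuron, at 1.03, held 42.8% of the Larynx sum, and without it the ratios were 10.2-fold and 5.09-fold.

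**Figure D5:**
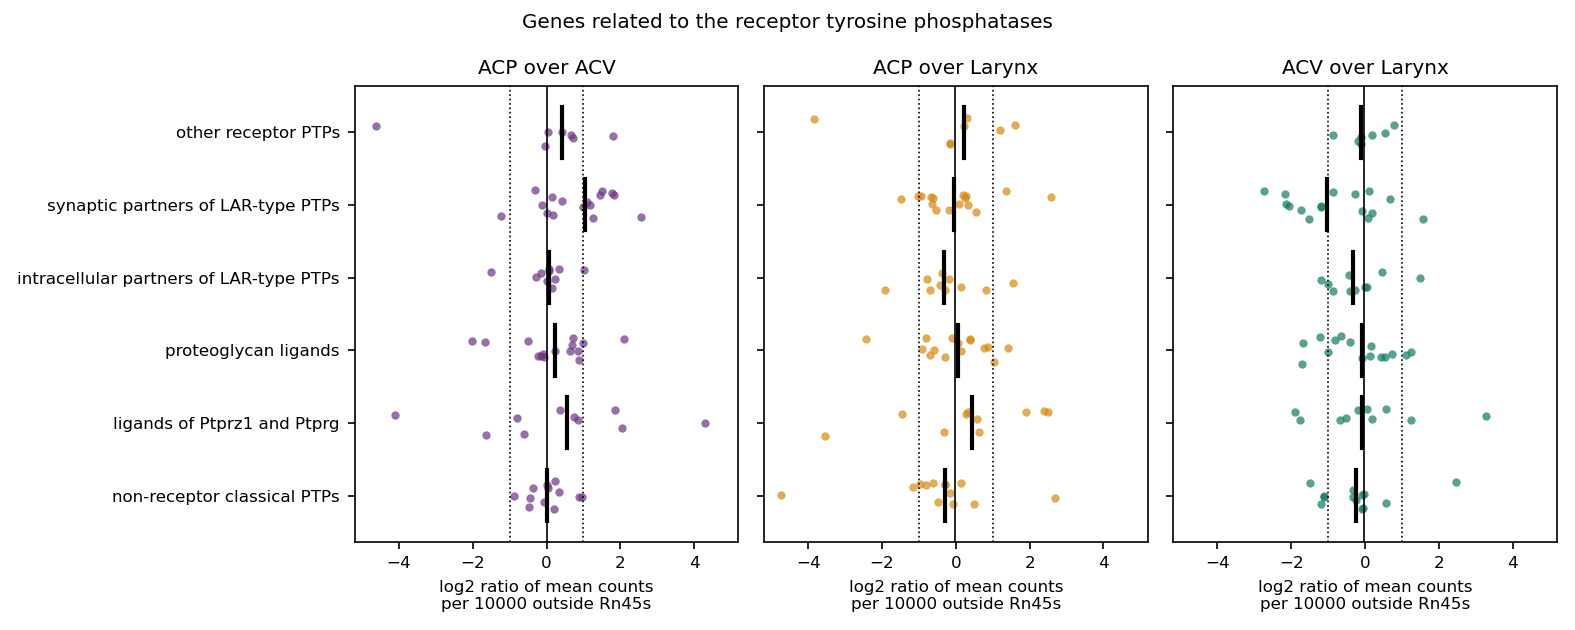
Log2 ratios of mean counts per 10000 outside Rn45s for the genes of 6 lists related to the members (points), with each list's median (thick bars), the median of all genes (line) and 2-fold (dotted lines). The synaptic partners of the LAR type have medians of 1.05 for ACP over ACV and -1.02 for ACV over Larynx, and the medians of the other lists stay within 2-fold.

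Of the intracellular partners of the LAR type, 10 of 11 passed the detection filter. Between ACP and ACV 1 was higher in each direction, between ACP and Larynx 1 in each, and between ACV and Larynx 1 was higher in ACV and 2 in Larynx, with medians of 0.08, -0.33 and -0.34. These counts are near the shares over all genes, which in the same order were 9.87% and 8.63%, 10.3% and 12.5%, and 10.4% and 14%. Caskin2, counted as higher in ACP and in Larynx than in ACV, was detected in 9.18% of ACV neurons. It passed the filter there only through ACP (30.2%) and Larynx (15.4%). Cask, a scaffold that binds liprins, was lower in Larynx: it ran from 0.0305 through 2.71 to 14 in ACP, from 0 through 3.1 to 8.56 in ACV and from 0 through 0.912 to 4.72 in Larynx. Its means of 3.43 ± 2.91 and 3.25 ± 1.85 in ACP and ACV were 2.95-fold and 2.79-fold the Larynx mean of 1.16 ± 1.15. Trio, a guanine nucleotide exchange factor bound by LAR, had means of 0.608 ± 0.806, 0.521 ± 0.741 and 1.04 ± 1.32, with Larynx 2.00-fold ACV, and 1.77-fold without the highest Larynx neuron.

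Of the proteoglycan ligands, 15 of 16 passed the filter. Between ACP and ACV, 1 was higher in ACP and 2 in ACV, between ACP and Larynx 2 in ACP and 1 in Larynx, and between ACV and Larynx 2 in ACV and 4 in Larynx, with medians of 0.22, 0.06 and -0.07. The shares over all genes were 9.87% and 8.63%, 10.3% and 12.5%, and 10.4% and 14%. Gpc1, a glypican, had means of 1.16 ± 1.14, 0.746 ± 1.31 and 1.73 ± 1.58 in ACP, ACV and Larynx, with Larynx 2.32-fold ACV. Sdc3, a syndecan of neurons, was counted in nearly all neurons, with means of 4.16 ± 3.47, 2.51 ± 1.86 and 5.07 ± 3.50 and Larynx 2.02-fold ACV, or 1.92-fold without the highest Larynx neuron. Sdc2 was 2.04-fold higher in ACP than in Larynx (0.580 ± 0.800 against 0.284 ± 0.584), or 1.86-fold without the highest ACP neuron. Gpc6 was 2.15-fold higher in ACV than in Larynx (0.191 ± 0.317 against 0.0891 ± 0.239). Without the highest Larynx neuron, at 1.37, Gpc6 was also past 2-fold for ACP over Larynx, at 2.56-fold.

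The ligands of Ptprz1 and Ptprg held some of the larger ratios. All 10 passed the filter, and between ACP and ACV 3 were higher in ACP and 2 in ACV, between ACP and Larynx 3 and 2, and between ACV and Larynx 2 and 2, with medians of 0.56, 0.45 and -0.07. Il34, counted as higher in ACV and in Larynx than in ACP, was detected in 5.66% of ACP neurons. It passed there only through ACV (11.2%) and Larynx (13.5%). Over all genes the shares were 9.87% and 8.63%, 10.3% and 12.5%, and 10.4% and 14%. The contactins each had their own pattern. Cntn4, a ligand of Ptprg, ran from 0 through 1.04 to 12.8 in ACP, from 0 through 0 to 1.06 in ACV and from 0 through 0.0933 to 1.77 in Larynx, with an ACP mean of 1.71 ± 2.17, 19.8-fold ACV (0.0865 ± 0.212) and 5.29-fold Larynx (0.323 ± 0.488). Cntn6 was also highest in ACP, 3.65-fold ACV and 3.76-fold Larynx (0.838 ± 1.23 against 0.230 ± 0.431 and 0.223 ± 0.394). Cntn3 had means of 0.202 ± 0.402, 0.0492 ± 0.143 and 0.168 ± 0.327, lowest in ACV as Ptprg was. Cntn5 was high in both cardiac types, with means of 1.32 ± 1.35 in ACP and 2.28 ± 2.43 in ACV, 5.67-fold and 9.78-fold Larynx (0.233 ± 0.457).

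Among the 11 other receptor phosphatases, 7 passed the filter. Between ACP and ACV 1 was higher in each, between ACP and Larynx 2 in ACP and 1 in Larynx, and none between ACV and Larynx, with medians of 0.42, 0.24 and -0.11. The gene higher in ACV, and in Larynx over ACP, was Ptprb. Detected in 7.55% of ACP, 18.4% of ACV and 15.4% of Larynx neurons, it passed only through the type where it was higher. Over all genes the shares were 9.87% and 8.63%, 10.3% and 12.5%, and 10.4% and 14%. Ptpre had means of 0.389 ± 0.835, 0.112 ± 0.428 and 0.128 ± 0.251, ACP being 3.48-fold ACV and 3.03-fold Larynx. Without the highest ACV neuron, at 3.91, ACP was 5.35-fold ACV. Ptprj had 0.146 ± 0.213, 0.0923 ± 0.216 and 0.0633 ± 0.112, ACP being 2.31-fold Larynx. Of 17 non-receptor phosphatases of the class, 12 passed the filter between ACP and ACV and none was past 2-fold, with a median of 0.02. Between ACP and Larynx, 1 of 13 was higher in ACP and 2 in Larynx, and between ACV and Larynx 1 in ACV and 4 in Larynx, with medians of -0.29 and -0.24, beside the shares over all genes just given. Ptpn6, counted as higher in Larynx in both, passed only through Larynx. It was detected in 3.77% of ACP, 7.14% of ACV and 13.5% of Larynx neurons. Ptpn5, a striatum-enriched phosphatase of neurons, had means of 2.32 ± 1.86, 1.25 ± 1.37 and 2.83 ± 2.02, with Larynx 2.27-fold ACV, and Ptpn12 had 0.171 ± 0.260, 0.0879 ± 0.196 and 0.188 ± 0.390, with Larynx 2.14-fold ACV, or 1.76-fold without the highest Larynx neuron. Without the highest ACV neuron Ptpn12 was past 2-fold for ACP over ACV as well, at 2.16-fold.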

How the data were processed

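The authors trimmed reads with Skewer, aligned them to mm10 with STAR 2.6.1d and deposited raw counts per gene symbol in 203 neurons, with the target and assigned cluster of each. The counting program and its use of strand are not given in the sources used here, and Smart-seq2 does not mark strand. A table named CPM, whose columns do not sum to 1000000, was not used.

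Counts were divided by each neuron's total outside Rn45s and multiplied by 10000. Ratios are of means over neurons, for genes counted in no fewer than 10% of either type's neurons, and called past 2-fold. With mouse and plate unnamed, each type was 1 sample and no test was run. Shares have exact Clopper-Pearson and sums exact Poisson 95% intervals. The ratio calculation was tested on simulated data. Exon lengths and sequences are from GENCODE vM21 (GRCm38), and the loop sequence of Ptprm is not reported here.

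The members and lists were chosen with earlier results of these data known. From each related list the text names up to 4 genes past 2-fold in any comparison and counted in 50% or more of a type's neurons, those with the largest ratios, with Ptprn2 and Ptpru, and the 5 genes most like Ptprd. Ghsr and Htr3b are named from the fixed marker list because they had no count in ACP, and Gm28294 and AC139750.1 because they overlap members. Ptprb, Caskin2, Il34 and Ptpn6 are named because they passed the detection filter only through the types where they were higher. Nefl, Tubb3, Snap25, Slc18a3 and Chat are named to show what makes up the sum of the cholinergic motor neuron list. Slitrk2, Slitrk6 and Il1rapl2 are named because they were sparse, and Il1rapl1 as the gene of its list past 2-fold toward ACV over ACP. The alternatives were scaling by all counts, by edgeR 4.0.16 TMM or DESeq2 1.42.0 size factors, other filters, summed or trimmed means, subsets of neurons and thinning. Python 3.11.15, numpy 2.4.6, scipy 1.17.1, pandas 2.3.3, matplotlib 3.10.9 and R 4.3.3 were used.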

Additional observations from a re-analysis of the deposited data

How the results depend on the processing

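The 3 ratios of Ptprd kept their direction and their side of 2-fold under all 10 alternatives that could move them: the log2 ratio was 3.22 to 4.09 for ACP over ACV, 0.26 to 0.99 for ACP over Larynx and -3.19 to -2.42 for ACV over Larynx. Of 270 values of the other members under alternatives, 256 kept their call and 14 did not, and none that was called changed direction. Besides those given beside the results, Ptprn passed 2-fold for ACP over Larynx when scaled by all counts and with at most 900 counts of Apoe, and for ACP over ACV with at most 50% of counts on Rn45s, a subset chosen after seeing the data. With that subset Ptprk passed 2-fold in both cardiac types over Larynx, where 15 Larynx neurons remained, while Ptprm passed it toward Larynx against ACP, at a log2 ratio of ACP over Larynx of -1.05 there and -2.48 with at most 900 counts of Apoe. Ptprm for ACV over Larynx was within 2-fold when scaled by all counts, at -0.54, and at -0.85 without the highest neuron of each type. Leaving out the highest neuron of 1 type only, also chosen after seeing the data, is given beside the genes it moved, and it took Il1rap past 2-fold for ACP over ACV and Lrfn1 within 2-fold there. The causes were not tested.

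Counts of genes past 2-fold depended on the filter by construction. Without a detection filter 3248 genes were higher in ACP and 2961 in ACV, 2742 in ACP and 4003 in Larynx, and 2782 in ACV and 4465 in Larynx, against 1318 and 1153, 1368 and 1653, and 1382 and 1858. With 25% detection they were 789 and 537, 817 and 1016, and 764 in ACV and 1282 in Larynx. Scaled by all counts, 3398 were higher in ACP and 695 in Larynx, and 3281 in ACV and 955 in Larynx. With trimmed means 2196 were higher in ACP and 1362 in ACV, 2294 in ACP and 1928 in Larynx, and 2138 in ACV and 2649 in Larynx. With at most 50% of counts on Rn45s 2229 were higher in ACP and 1872 in Larynx.

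No paired analysis was possible because the labels number no replicates and no test was run. Depth limits the sparse members: thinning lowered the detection of Ptprd in ACV to 66.3% and of Ptprk in ACV to 32.7%, from 79.6% and 43.9% of the same neurons. Each type is 1 sample of unnamed mice, so no value here measures the spread between mice.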
